A study of Mus musculus with 12 samples.

Results

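The genes described here are the mouse fibroblast growth factor (FGF) ligands and receptors, the Sprouty and Spred inhibitors, the FGF-induced genes Dusp6, Etv4 and Etv5, and the FGF carrier Fgfbp1. They were taken by symbol, which gave 37 of the 52670 symbols in the deposited tables, and 29 of the 37 had enough counts to be tested. RNA came from the epithelium of the circumvallate papilla, a taste papilla far back on the tongue, of adult Sox2GFP mice aged 11 to 12 weeks. Cells were sorted by the brightness of the Sox2 reporter into the 4 bins Low, MedLow, HiMed and High, and cells without GFP were discarded, so every group is GFP-positive and shares the reporter allele. Each bin has 3 libraries, and a replicate pooled between 7 and 13 mice. The reporter reads Sox2, a transcription factor of epithelial progenitors and of the taste lineage, and a bin is a mixture of all cells of that brightness.

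Secreted FGFs bind receptor tyrosine kinases on neighbouring cells, with heparan sulphate chains as part of the complex, and the receptors signal mainly through RAS and the kinase ERK. ERK raises transcription of the ETS factors Etv4 and Etv5 and of inhibitors that damp the same pathway, among them the Sprouty and Spred proteins and the phosphatase Dusp6. Sprouty genes and Fgf10 are known from mouse embryos to set the size and number of circumvallate papillae. Intracellular FGFs such as Fgf14 are not secreted and bind voltage-gated sodium channels.

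The stretches of DNA before the start sites of 4 members are printed because each of these genes stands for one of the patterns described further on. Fgf3 and Fgfrl1 were highest in High, Dusp6 was highest in HiMed, and Fgfr2 was highest in Low. They come from RefSeq on build GRCm38.p6, which is an older build than the mm39 named in the submitters' processing notes, and each runs 5′ to 3′ on the gene's strand within the 250 bases before the RefSeq start. The Fgf3 stretch leaves out the 17 bases next to the start, because GENCODE M21 gives them as exon. Capitals mark matches to 3 motifs searched on both strands: the ETS motif CCGGAAGT, the SOX motif AACAAT and the TCF/LEF motif CTTTGA, none of which overlapped another in these windows.
Fgf3: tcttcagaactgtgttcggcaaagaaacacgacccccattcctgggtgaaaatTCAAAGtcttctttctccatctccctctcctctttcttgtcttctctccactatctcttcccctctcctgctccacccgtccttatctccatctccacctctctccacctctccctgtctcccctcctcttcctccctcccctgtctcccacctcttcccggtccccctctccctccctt
Fgfrl1: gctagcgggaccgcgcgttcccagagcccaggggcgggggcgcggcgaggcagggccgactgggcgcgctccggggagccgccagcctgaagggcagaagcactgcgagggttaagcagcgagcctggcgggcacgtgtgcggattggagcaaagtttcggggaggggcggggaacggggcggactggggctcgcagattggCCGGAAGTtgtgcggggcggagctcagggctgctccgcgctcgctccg
Dusp6: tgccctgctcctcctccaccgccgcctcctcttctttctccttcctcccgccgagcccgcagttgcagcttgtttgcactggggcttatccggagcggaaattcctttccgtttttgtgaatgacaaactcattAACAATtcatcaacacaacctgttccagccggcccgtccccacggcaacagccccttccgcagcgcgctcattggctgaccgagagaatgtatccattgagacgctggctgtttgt
Fgfr2: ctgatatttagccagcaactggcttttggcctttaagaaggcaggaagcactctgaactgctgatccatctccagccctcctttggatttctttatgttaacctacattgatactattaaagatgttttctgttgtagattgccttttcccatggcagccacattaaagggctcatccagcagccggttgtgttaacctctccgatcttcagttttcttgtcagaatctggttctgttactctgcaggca
The Fgf3 stretch lies at chr7:144838362-144838594 on the plus strand and holds a TCF/LEF match on the opposite strand, 197 to 192 bases before the start. The Fgfrl1 window, chr5:108693979-108694228 on the plus strand, holds an ETS match 48 to 41 bases before the start, and it is rich in G and C (73.6%) with 30 CpG dinucleotides. The Dusp6 window, chr10:99262981-99263230 on the plus strand, holds a SOX match 116 to 111 bases before the start (56.4% G and C, 16 CpG). The Fgfr2 window, chr7:130266809-130267058 on the minus strand, holds none of the 3 motifs and only 2 CpG (44.0% G and C). The whole Fgf3 window had 55.2% G and C with 4 CpG, against medians of 52.4% and 6 over all 32851 RefSeq windows. Of all windows, 2.88% held the ETS motif, 9.42% the SOX motif and 13.83% the TCF/LEF motif. RefSeq windows were found for 28 of the 37 members, 36 windows in all, of which 1, 2 and 3 held the ETS, SOX and TCF/LEF motif.

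Libraries held 25.7 to 55.6 M counts, and Sox2 itself increased with brightness, at 63.8 to 76.1 CPM in Low, 97.1 to 99.4 CPM in MedLow, 168 to 173 CPM in HiMed and 358 to 382 CPM in High. CPM are counts scaled to a common library total after TMM correction, and TPM are the deposited values that also allow for transcript length. The summed level of 5 taste bud markers was 1820 to 3140 CPM in High and 382 to 501 CPM in Low. These 5 were Krt8, Krt19, Kcnq1, Prox1 and Sox2, and the part of Sox2 in that rise follows from the sort. The summed level of 5 epithelial markers was 5310 to 7240 CPM in High and 22700 to 23500 CPM in Low. Most of the latter was Krt5 and Krt14, with means of 13833 and 7397 CPM in Low. Krt5, Krt14 and Trp63 were lower in High. Epcam and Cdh1 were higher, with means of 581 and 923 CPM in High and 178 and 732 CPM in Low. Fibroblast markers summed to 8.37 to 17.4 CPM in High and 591 to 632 CPM in Low, where nearly all of it was Dcn. Pdgfra of that list was higher in High (edgeR adjusted p = 0.0437), and 1 of the 8, Lum, was at 0 in every bin. Von Ebner gland markers summed to 14.7 to 117 CPM in High and 711 to 2040 CPM in Low. At an edgeR adjusted p below 0.05, 4 of those 6 were lower in High, while Aqp5 was higher, with means of 22.4 CPM in High and 1.58 CPM in Low (edgeR adjusted p = 7.37e-06). Leukocyte markers summed to 105 to 313 CPM in High and 33.2 to 51.1 CPM in Low, mostly Lyz2, and went both ways. Lyz2 and Itgam were higher in High (edgeR adjusted p = 8.20e-04 and 0.0303), Cd74 was lower, with means of 0.281 CPM in High and 6.42 CPM in Low (edgeR adjusted p = 0.00356), Ptprc and Cd68 were not called, and Cd3e was at 0 in every bin. Endothelial markers summed to 46.4 to 83.9 CPM in High and 13.7 to 24.6 CPM in Low, mostly Vwf, with Kdr at 0 in both. Vwf was higher in High (edgeR adjusted p = 4.05e-05), Pecam1 and Tek were not called (edgeR adjusted p = 0.966 and 0.198), and Cdh5 was not tested. Schwann cell and neuron markers summed to 48.3 to 54.2 CPM in High and 112 to 141 CPM in Low. The part of these other cells in the results below was not tested. In bulk samples, fewer cells of a type and less RNA per cell cannot be told apart.

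Among the 29 tested members, 18 differed somewhere among the 4 bins (edgeR quasi-likelihood test, Benjamini-Hochberg adjusted p below 0.05), beside 41.8% of all 17432 genes tested. The largest mean was in High for 7 of the 18, in HiMed for 7, in Low for 4 and in MedLow for 0. Among members called at least once, High replicate 3 was the highest library of all for Fgf1, Fgf3, Fgf14, Fgf20, Fgfrl1 and Etv5. It was the lowest for Fgfr2, Fgfr3, Dusp6, Spred2 and Fgfbp1. That library also had the highest summed taste bud markers (3139 CPM, against 2247 and 1818 CPM in the other High libraries). It had the lowest summed epithelial markers (5315 CPM, against 6395 and 7238 CPM) and the most Lyz2, at 303 CPM. Within the epithelial list, its Krt5, Krt14 and Trp63 were the lowest of all libraries. Its Epcam and Cdh1 were the highest, at 697 and 972 CPM. The part of these in those values was not tested.

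Fgf1, Fgf3 and Fgf20 were each higher in High than in Low. Together they made up 46.0%, 52.6%, 80.4% and 93.0% of the secreted ligand TPM from Low to High. In HiMed most of that share was Fgf1, which alone was 73.3% of the sum. Fgf1, a ligand that can bind every FGF receptor, was present in all bins. It had 8.78, 11.9 and 12.4 CPM in the Low libraries, 8.92, 8.47 and 11.1 CPM in MedLow, 30.3, 25.3 and 29.8 CPM in HiMed and 78.7, 61.96 and 117 CPM in High. The 3 HiMed libraries lay above all 6 Low and MedLow libraries, and the 3 High libraries lay above every other. Means were 28.5 ± 2.75 CPM in HiMed and 9.51 ± 1.42 CPM in MedLow (SD, n = 3), and the log2 fold change of HiMed over MedLow was 1.58 (SE 0.21, adjusted p = 2.51e-04). In High the mean was 86 ± 28.4 CPM, and the log2 fold change was 1.59 (SE 0.21, adjusted p = 1.03e-04) against HiMed and 2.97 (SE 0.22, adjusted p = 1.81e-07) against Low.

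Fgf3 and Fgf20, ligands known from inner ear and tooth development in the mouse, were close to absent outside High. Fgf3 had 0 counts in all 6 Low and MedLow libraries, 0.958, 0.328 and 0.761 CPM in HiMed and 17.96, 13.1 and 23.9 CPM in High. Every High library was above every HiMed library, which in turn were all above 0. Against a floor of 3 counts over the 3 libraries of a bin (0.0284 CPM in Low and 0.0254 CPM in MedLow), Fgf3 was at least 640-fold higher in High than in Low (edgeR adjusted p = 1.90e-06). It was at least 27.8-fold higher in HiMed than in MedLow (edgeR adjusted p = 6.50e-04), a call that was lost on the log2(TPM + 1) scale (limma adjusted p = 0.306). The log2 fold change of High over HiMed was 4.73 (SE 0.47, adjusted p = 9.68e-05). Such floors and the intervals below cover counting error only.

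Fgf20 had 0.165, 0.202 and 0.182 CPM in the Low libraries, 0.0257, 0.750 and 0.132 CPM in MedLow, 1.21, 0.137 and 0.851 CPM in HiMed and 22.6, 19.1 and 29.9 CPM in High. The 3 High libraries stood far above the other 9, among which MedLow replicate 2 and HiMed replicates 1 and 3 were the highest. Its log2 fold change was 7.02 (SE 0.87, adjusted p = 1.94e-05) for High over Low and 5.00 (SE 0.75, adjusted p = 3.29e-04) for High over HiMed. Between HiMed and MedLow the value of 1.27 missed the threshold (edgeR adjusted p = 0.334), and passed it without MedLow replicate 2 (adjusted p = 0.0316).

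**Figure D1:**
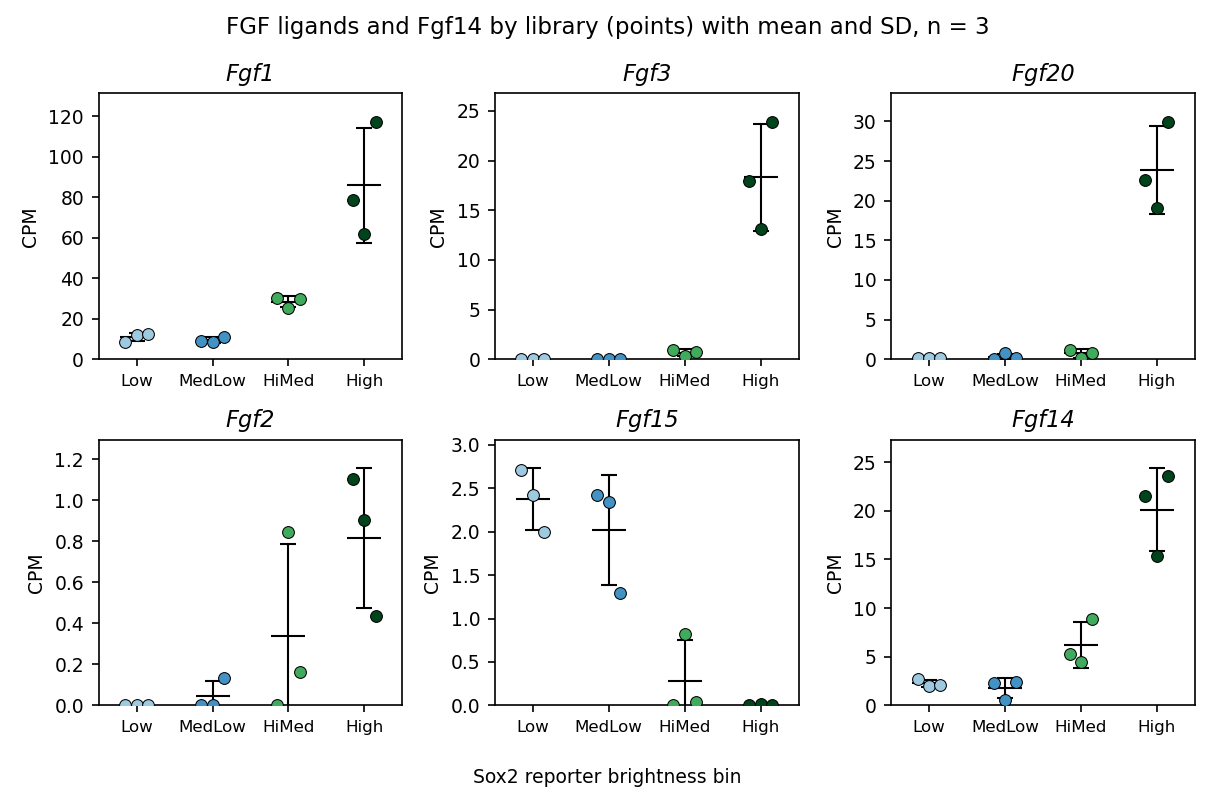
CPM of Fgf1, Fgf3, Fgf20, Fgf2, Fgf15 and Fgf14 in the 12 libraries, with bins on the horizontal axis in order of brightness, points for libraries and bars for the mean and SD (n = 3). Fgf3 and Fgf20 reach 13.1 to 23.9 CPM and 19.1 to 29.9 CPM in High and stay at or below 1.21 CPM elsewhere, Fgf1 is already raised in HiMed, and Fgf15 is highest in Low and MedLow.

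Fgf15 ran the opposite way. It is a hormone-like FGF, known in mice as the intestinal signal that limits bile acid synthesis in the liver. It had 2.71, 2.42 and 2.00 CPM in the Low libraries, 2.42, 2.35 and 1.29 CPM in MedLow, 0, 0.821 and 0.0362 CPM in HiMed and 0, 0.0181 and 0 CPM in High. All 6 Low and MedLow libraries lay above all 6 HiMed and High libraries. Its 3 libraries together held 1 count in High and 252 counts in Low, a ratio of 357 of Low over High (95% counting interval 63.4 to 14100; edgeR adjusted p = 0.00132 for High against Low). In HiMed most of its counts came from replicate 2. High against HiMed passed the threshold (edgeR adjusted p = 0.0384) but was lost under 12 of 20 alternatives, with adjusted p = 0.568 without HiMed replicate 2 and adjusted p = 0.0563 with the replicate number as a block. The log2 fold change of HiMed over MedLow, -2.84, missed it (adjusted p = 0.141) and passed under 3 of 21 alternatives (adjusted p between 0.00307 and 0.0193), which were both TPM scales and leaving out HiMed replicate 2.

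Fgf2, a ligand held in the extracellular matrix, was near the floor. It had 0 counts in all Low libraries, 0, 0 and 0.132 CPM in MedLow, 0, 0.848 and 0.163 CPM in HiMed and 1.10, 0.907 and 0.438 CPM in High. High libraries lay above all Low and MedLow libraries and overlapped those of HiMed. At 121 counts over the 3 High libraries it was at least 28.5-fold higher in High than in Low (edgeR adjusted p = 0.0248), a call lost without any 1 of the Low libraries (adjusted p between 0.0608 and 0.0706) and with limma on log2(TPM + 1) and log2(TPM + 0.1) (adjusted p = 0.166 and 0.0888). Any difference among the bins missed the threshold (adjusted p = 0.0637) and passed under 4 of 19 alternatives (adjusted p between 0.0241 and 0.0425). Its TPM did not follow its counts. The High libraries had 8.48, 0.269 and 0.133 TPM from 49, 50 and 22 counts, and MedLow replicate 3 had 1.91 TPM from 5 counts, which bears on the TPM values of Fgf2 and on any sum that includes them. Fgf2 overlaps Nudt6 on the opposite strand in GENCODE M21, and whether reads were assigned by strand is not given in the sources used here, so whether its counts include reads of Nudt6 was not tested.

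Fgf14 was the intracellular FGF that changed. It had 2.68, 1.98 and 2.13 CPM in the Low libraries, 2.34, 0.557 and 2.42 CPM in MedLow, 5.28, 4.43 and 8.85 CPM in HiMed and 21.5, 15.3 and 23.5 CPM in High. HiMed and High each lay wholly above the bins dimmer than themselves. Its log2 fold change was 3.14 (SE 0.45, adjusted p = 6.93e-05) for High over Low, 1.70 (SE 0.42, adjusted p = 0.0102) for High over HiMed and 1.81 (SE 0.43, adjusted p = 0.0135) for HiMed over MedLow, the last of which was lost without HiMed replicate 3 (adjusted p = 0.066) and in a fit of those 6 libraries alone (adjusted p = 0.0514). Its relatives Fgf11 and Fgf13 were not called in any comparison. Fgf11 averaged 2.62 ± 0.128 CPM in High and 5.49 ± 2.66 CPM in Low (SD, n = 3; log2 fold change -1.06, edgeR adjusted p = 0.0618, passing under 3 of 21 alternatives, among them DESeq2 with adjusted p = 0.0385). Fgf13 had means of 5.24, 2.76, 5.14 and 6.17 CPM from Low to High, and any difference among the bins had an adjusted p of 0.0519. It passed under 7 of 20 alternatives (adjusted p between 0.0183 and 0.048), with 0.041 with the replicate block.

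The remaining ligand genes gave few or no counts. Fgf7, Fgf9, Fgf16, Fgf17, Fgf18, Fgf21 and Fgf22 were tested and not called in any comparison by edgeR. Fgf9, an epithelial ligand, had the highest mean of these, 1.53 ± 0.329 CPM in High against 0.602 ± 0.255 CPM in Low, and the 3 High libraries lay above the 3 Low libraries (log2 fold change 1.33, SE 0.73, adjusted p = 0.170). That difference passed on log2(TPM + 1) (limma adjusted p = 0.0439), and any difference among the bins passed for Fgf9 under 3 of 20 alternatives, among them DESeq2 (adjusted p = 0.0234). Fgf22 had 0 counts in High and 25 in Low (edgeR adjusted p = 0.0706) and passed with limma on log2(TPM + 1) and log2(TPM + 0.1) (adjusted p = 0.0407 and 0.0226). Fgf7, made by fibroblasts in many tissues, had 11 counts in High and 37 in Low (edgeR adjusted p = 0.435). The 8 members that were not tested are Fgf4 and Fgf5 with 0 counts in all 12 libraries, Fgf6 with 2, Fgfr4 with 3, Fgf23 with 9, Fgf10 with 14, Fgf8 with 20 and Fgf12 with 24. All 20 counts of Fgf8 and 12 of the 14 counts of Fgf10 were in High replicate 3. These 8 did not pass the count filter, so differences between bins were not tested for them.

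In TPM, which allow levels of different genes to be compared, the secreted ligands together came to 13.0 ± 1.68 TPM in the Low bin, 9.50 ± 2.72 TPM in MedLow, 19.7 ± 1.15 TPM in HiMed and 117 ± 38.2 TPM in High (SD, n = 3). Fgf1, Fgf3 and Fgf20 made up 46.0%, 52.6%, 80.4% and 93.0% of that sum in the 4 bins. Fgf1 alone was 46.6 ± 3.22% of it in High and 73.3 ± 3.14% in HiMed. The means in High were 54.7 TPM for Fgf1, 33.1 TPM for Fgf20 and 20.995 TPM for Fgf3. The sum of the first High library includes the 8.48 TPM of Fgf2.

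The receptors did not move as a block. Fgfr2, the receptor best known from epithelia that respond to mesenchymal FGFs, fell in HiMed and again in High. It had 479, 498 and 457 CPM in the Low libraries, 455, 471 and 403 CPM in MedLow, 269, 295 and 258 CPM in HiMed and 135, 139 and 116 CPM in High. The Low and MedLow libraries overlapped, all HiMed libraries lay below both, and all High libraries lay lowest. Its log2 fold change was -0.69 (SE 0.09, adjusted p = 2.07e-04) for HiMed over MedLow, -1.08 (SE 0.09, adjusted p = 3.73e-06) for High over HiMed and -1.88 (SE 0.09, adjusted p = 5.00e-09) for High over Low, while MedLow over Low was -0.11 and missed the threshold (edgeR adjusted p = 0.644).

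Fgfr3 fell at the last step, and its earlier steps were not called. Known from mouse cartilage and cochlea, this receptor had 530, 491 and 474 CPM in the Low libraries, 498, 493 and 452 CPM in MedLow, 487, 456 and 440.8 CPM in HiMed and 113, 142 and 71.7 CPM in High. The 9 libraries of the dimmer bins lay between 440.8 and 530 CPM, far above all 3 High libraries. High over HiMed was -2.08 (SE 0.18, adjusted p = 4.11e-06) and High over Low -2.19 (SE 0.18, adjusted p = 4.10e-07) on the log2 scale. The steps of HiMed over MedLow (-0.06, edgeR adjusted p = 0.889) and MedLow over Low (-0.05, adjusted p = 0.958) were not called.

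Fgfr1 went down and up again along the bins. It had 99.9, 90.7 and 103 CPM in the Low libraries, 63.7, 57.5 and 63.6 CPM in MedLow, 147, 119 and 128 CPM in HiMed and 94.6, 105 and 91.5 CPM in High. MedLow libraries were the lowest and HiMed libraries the highest, with no overlap between either and any other bin, while Low and High overlapped. MedLow over Low was -0.67 (SE 0.10, adjusted p = 7.39e-04), HiMed over MedLow 1.09 (SE 0.10, adjusted p = 9.88e-06) and High over HiMed -0.44 (SE 0.09, adjusted p = 0.00476) on the log2 scale. High over Low was -0.01 (edgeR adjusted p = 0.935), and this value changed sign between settings.

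Fgfrl1 showed the largest change among the receptors. It encodes a receptor-like protein that binds FGFs but lacks the tyrosine kinase domain. It had 17.1, 13.4 and 13.7 CPM in the Low libraries, 10.3, 12.4 and 9.32 CPM in MedLow, 11.9, 14.2 and 14.4 CPM in HiMed and 162, 137 and 236 CPM in High. The lowest High library was many times above the highest of the other 9. The fitted fold of High over Low was 12.1 (log2 fold change 3.60, SE 0.20, adjusted p = 1.24e-08), and the log2 fold change of High over HiMed was 3.72 (SE 0.20, adjusted p = 2.55e-07). The differences among the dimmer bins were not called, at 0.34 for HiMed over MedLow (edgeR adjusted p = 0.276) and -0.47 for MedLow over Low (edgeR adjusted p = 0.196). Fgfr4, the remaining receptor kinase, had 3 counts in all 12 libraries together, all in Low replicate 1.

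**Figure D2:**
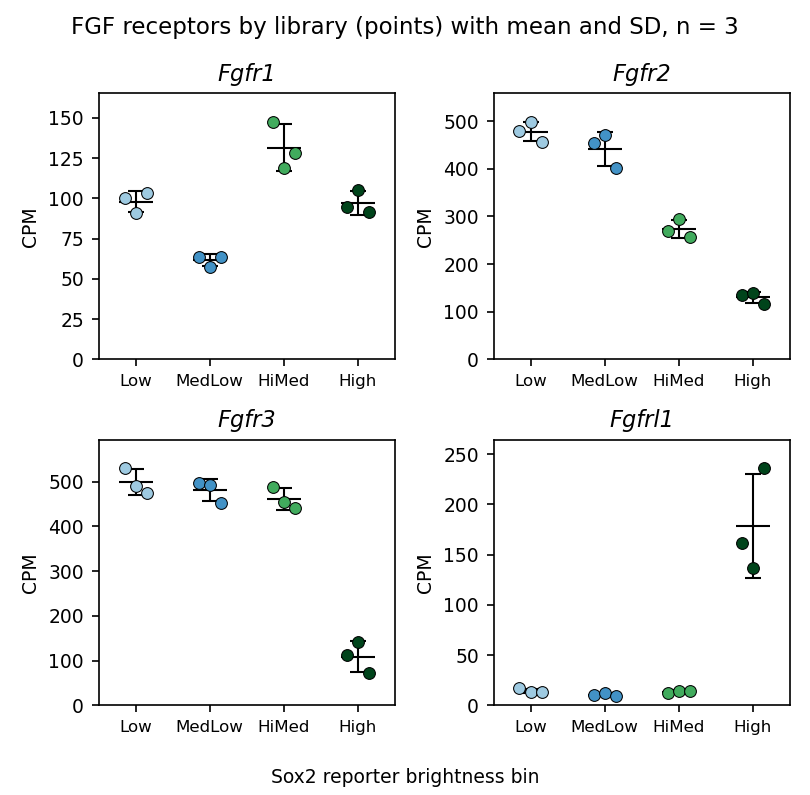
CPM of Fgfr1, Fgfr2, Fgfr3 and Fgfrl1 in each library by bin, with points for libraries and bars for the mean with SD. Fgfr2 and Fgfr3 are at their lowest in High, at 116 to 139 CPM and 71.7 to 142 CPM, where Fgfrl1 reaches 137 to 236 CPM.

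On the TPM scale the kinase receptors Fgfr1, Fgfr2 and Fgfr3 summed to 590 TPM in Low, 540 TPM in MedLow, 552 TPM in HiMed and 228 ± 28.9 TPM in High. Within that sum Fgfr3 held the largest share in the dimmer bins, 49.3% in Low, 52.6% in MedLow and 55.8% in HiMed, and 31.9% in High. The share of Fgfr1 was largest in High, with 8.94%, 5.96%, 14.9% and 27.7% along the bins, while Fgfr2 held 41.7%, 41.4%, 29.3% and 40.4%. Relative to the summed kinase receptors, Fgfrl1 amounted to 0.0210, 0.0186, 0.0229 and 0.848 ± 0.336 along the bins. In other terms it was 44.7% of the TPM of these 4 receptor genes in High and 2.23% in HiMed. These shares carry no test. Gene-level counts do not separate the alternative forms of the receptors that bind different ligands.

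**Figure D3:**
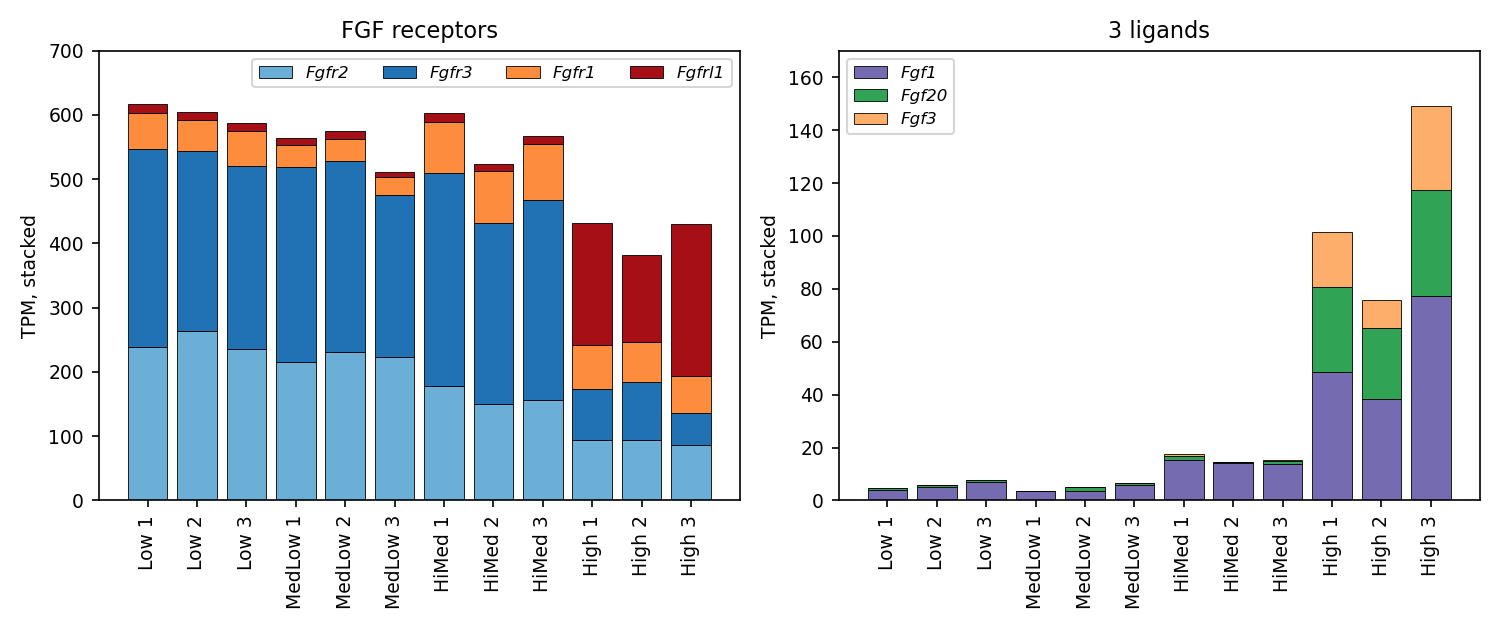
Stacked TPM of Fgfr1, Fgfr2, Fgfr3 and Fgfrl1 (left) and of the ligands Fgf1, Fgf3 and Fgf20 (right), 1 bar per library from Low to High. The receptor kinases sum to a mean of 228 TPM in High, less than in any other bin, and the bars of Fgfrl1 and of the 3 ligands are tallest there.

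The ETS factors Etv4 and Etv5, both induced by ERK, were higher in High than in Low but peaked in different bins. Etv4 had 16.95, 18.6 and 15.3 CPM in the Low libraries, 16.9, 17.9 and 19.6 CPM in MedLow, 59.5, 49.2 and 50.8 CPM in HiMed and 34.2, 41.1 and 27.2 CPM in High. Its HiMed libraries lay above all others, and its High libraries above all Low and MedLow libraries. HiMed over MedLow was 1.55 (SE 0.15, adjusted p = 1.89e-05), High over Low 1.01 (SE 0.15, adjusted p = 7.68e-05) and High over HiMed -0.64 (SE 0.14, adjusted p = 0.00587) on the log2 scale, the last lost with limma on log2(TPM + 1) and log2(TPM + 0.1) (adjusted p = 0.0664 and 0.0693).

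Etv5 had 46.9, 54.4 and 53.7 CPM in the Low libraries, 33.4, 37.8 and 36.8 CPM in MedLow, 66.4, 52.8 and 65.4 CPM in HiMed and 104, 91.1 and 122 CPM in High. All High libraries lay above all others, and all MedLow libraries below all others. High over HiMed was 0.78 (SE 0.12, adjusted p = 4.03e-04), HiMed over MedLow 0.77 (SE 0.12, adjusted p = 7.85e-04) and High over Low 1.03 (SE 0.12, adjusted p = 1.17e-05) on the log2 scale. MedLow over Low was -0.52 (SE 0.12, adjusted p = 0.0191), and that call was lost without Low replicate 2, Low replicate 3, MedLow replicate 1 or MedLow replicate 3 (adjusted p between 0.0609 and 0.0939).

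Dusp6, the cytoplasmic phosphatase that switches off ERK, was highest in HiMed. It had 170, 141 and 183 CPM in the Low libraries, 150, 125 and 135 CPM in MedLow, 258, 187 and 239 CPM in HiMed and 124, 119 and 109 CPM in High. The lowest HiMed library lay above the highest of all other bins, and all High libraries lay below all other libraries. HiMed over MedLow was 0.74 (SE 0.13, adjusted p = 0.00147), High over HiMed -0.96 (SE 0.13, adjusted p = 1.22e-04) and High over Low -0.49 (SE 0.13, adjusted p = 0.00675) on the log2 scale. The last was lost with limma on log2(TPM + 1), at -0.21 (adjusted p = 0.34).

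The Sprouty genes, which encode inhibitors of receptor tyrosine kinase signalling, differed in direction. Spry4 had 3.13, 2.38 and 3.11 CPM in the Low libraries, 4.11, 3.39 and 3.26 CPM in MedLow, 14.04, 9.08 and 12.2 CPM in HiMed and 15.6, 16.1 and 13.3 CPM in High. HiMed and High libraries lay above all Low and MedLow libraries and overlapped each other. High over Low was 2.38 (SE 0.22, adjusted p = 1.38e-06) and HiMed over MedLow 1.71 (SE 0.21, adjusted p = 1.49e-04) on the log2 scale, while High over HiMed was 0.35 and missed the threshold (edgeR adjusted p = 0.262).

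Spry2 changed little in size. It had 33.2, 29.6 and 31.9 CPM in the Low libraries, 34.1, 37.3 and 28.2 CPM in MedLow, 45.5, 40.9 and 45.2 CPM in HiMed and 40.97, 43.4 and 38.9 CPM in High. All HiMed and High libraries lay above all Low and MedLow libraries. High over Low was 0.38 (SE 0.11, adjusted p = 0.0120) on the log2 scale, lost without Low replicate 2 (adjusted p = 0.0512), and HiMed over MedLow was 0.40 (SE 0.11, adjusted p = 0.0250), lost without MedLow replicate 1, MedLow replicate 3, HiMed replicate 1 or HiMed replicate 3 (adjusted p between 0.0599 and 0.112). Spry1 fell, with 90.4, 79.2 and 69.6 CPM in the Low libraries, 83.6, 71.5 and 69.2 CPM in MedLow, 68.7, 51.7 and 58.5 CPM in HiMed and 49.2, 55.8 and 62.6 CPM in High. Its High libraries lay below its Low libraries and overlapped those of HiMed. High over Low was -0.51 (SE 0.13, adjusted p = 0.00621) on the log2 scale, and the call was lost with limma on log2(TPM + 1) (adjusted p = 0.14), as was its call for any difference (edgeR adjusted p = 0.0128, limma adjusted p = 0.255).

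Of the Spred genes, which encode membrane-bound relatives of the Sprouty proteins, Spred2 fell at the last step. It had 144, 153 and 137 CPM in the Low libraries, 135, 145 and 135 CPM in MedLow, 187, 175 and 161 CPM in HiMed and 124, 127 and 90.7 CPM in High. HiMed libraries lay above all others, and High libraries below all others. High over HiMed was -0.61 (SE 0.11, adjusted p = 0.00155) on the log2 scale. High over Low was -0.34 (SE 0.11, adjusted p = 0.0260) and was lost under 7 of 21 alternatives, among them library size only (adjusted p = 0.0887), and without Low replicate 1 (0.0571), Low replicate 2 (0.0925) or High replicate 3 (0.086). HiMed over MedLow was 0.33 and missed the threshold (edgeR adjusted p = 0.0706), but passed under 8 of 21 alternatives (adjusted p between 0.0109 and 0.042), among them DESeq2 (0.0275) and the replicate block (0.0227). Spred3 had 3.34, 2.94 and 2.00 CPM in the Low libraries, 2.44, 2.23 and 1.63 CPM in MedLow, 5.26, 3.501 and 5.43 CPM in HiMed and 3.96, 3.43 and 4.26 CPM in High. Its HiMed libraries lay above all MedLow libraries, with a log2 fold change of 1.17 (SE 0.33, adjusted p = 0.0314) for HiMed over MedLow, lost under 8 of 21 alternatives. Its test of any difference (edgeR adjusted p = 0.0399) was lost under 14 of 20, with adjusted p = 0.0562 with the replicate block. Spred1 was not called, with means of 59.3, 51.4, 61.2 and 54.99 CPM and an adjusted p of 0.235 for any difference, which passed without HiMed replicate 2 (adjusted p = 0.0212).

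Fgfbp1, a secreted carrier that frees FGFs from heparan sulphate, was lowest in High. It had 83.8, 119 and 110 CPM in the Low libraries, 135, 132 and 151 CPM in MedLow, 119, 160 and 150 CPM in HiMed and 54.6, 78.2 and 53.9 CPM in High. High libraries lay below all others, and MedLow and HiMed overlapped. High over HiMed was -1.20 (SE 0.16, adjusted p = 1.61e-04) and High over Low -0.74 (SE 0.16, adjusted p = 0.00224) on the log2 scale. MedLow over Low was 0.42 and missed the threshold (edgeR adjusted p = 0.180), but passed with the replicate block (adjusted p = 0.0411).

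**Figure D4:**
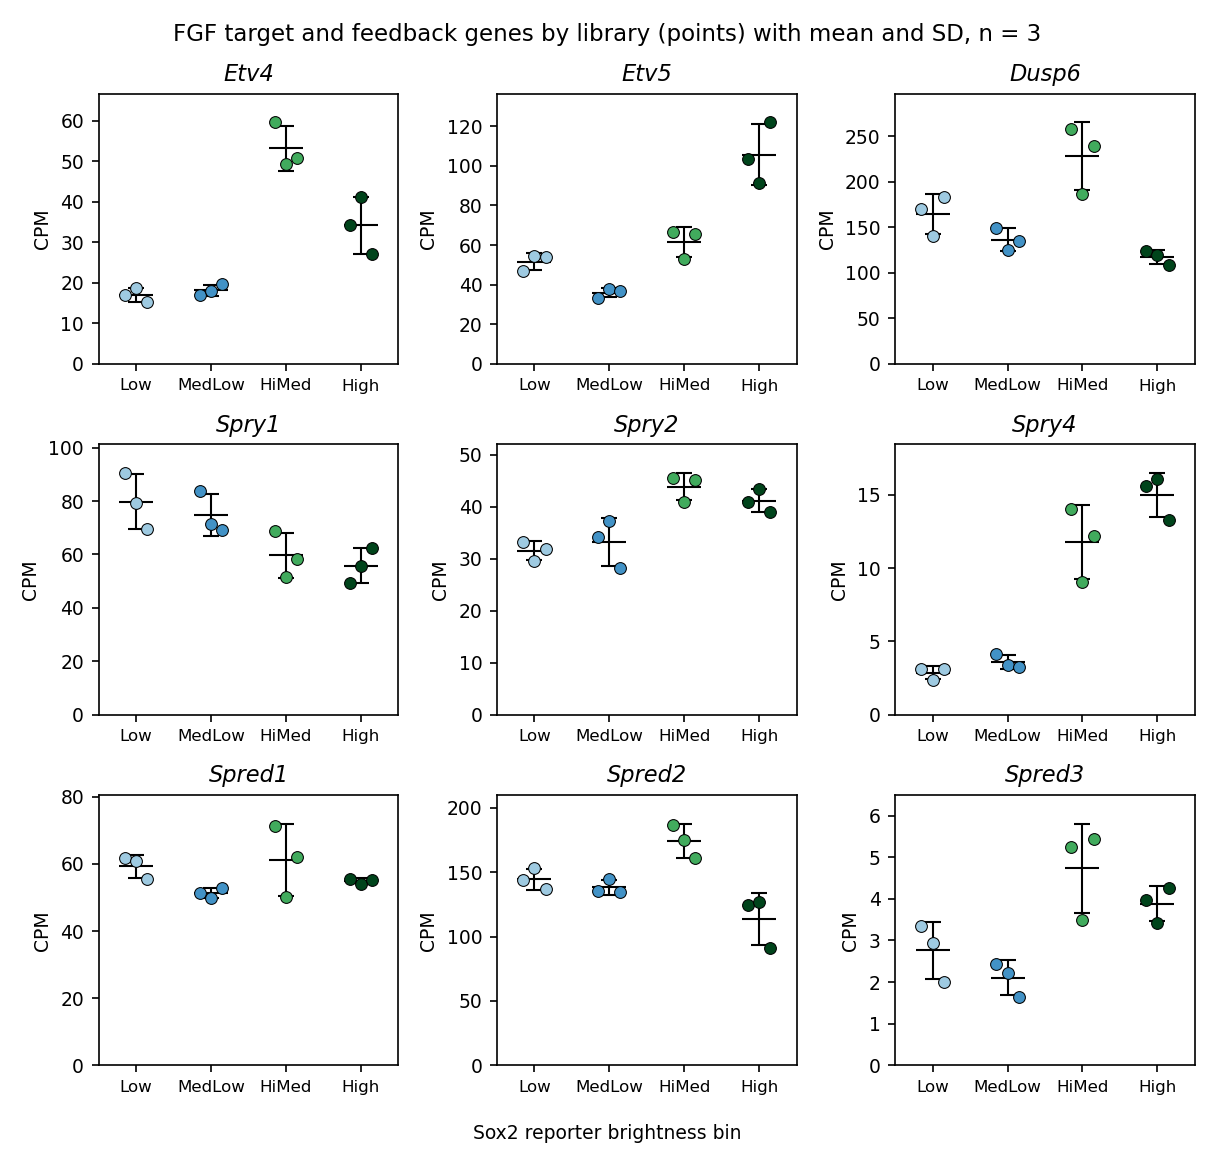
CPM of Etv4, Etv5, Dusp6 and the Sprouty and Spred genes in each library by bin, with points for libraries and bars for the mean and SD (n = 3). Etv4, Dusp6 and Spred2 are highest in HiMed, at 49.2 to 59.5, 187 to 258 and 161 to 187 CPM, and Etv5 is highest in High, at 91.1 to 122 CPM.

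The comparison of High with Low sets the brightest cells against the dimmest, and the other comparisons take the bins step by step. High against Low called 17 of 29, 10 higher and 7 lower in High, beside 41.4% of all genes (20.1% higher and 21.2% lower). The higher ones were Fgf1, Fgf2, Fgf3, Fgf14, Fgf20, Fgfrl1, Etv4, Etv5, Spry2 and Spry4, and the lower ones were Fgf15, Fgfr2, Fgfr3, Dusp6, Spry1, Spred2 and Fgfbp1. The median log2 fold change was -0.012 over the 29 members and -0.007 over all genes tested. High and Low libraries did not overlap for 21 members, beside 52.4% of all genes. With the log2(TPM + 1) scale, the median of all genes shifted by 0.186 in this comparison.

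High against HiMed called 14 of 29, 6 higher and 8 lower, beside 22.1% of all genes (10.6% higher and 11.6% lower). Higher in High were Fgf1, Fgf3, Fgf14, Fgf20, Fgfrl1 and Etv5. Lower in High were Fgf15, Fgfr1, Fgfr2, Fgfr3, Dusp6, Etv4, Spred2 and Fgfbp1. For 14 members the High and HiMed libraries lay apart without overlap, beside 35.3% of all genes, and the median log2 fold change was -0.095 over the members and -0.009 over all genes.

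HiMed against MedLow called 11 of 29, 10 higher and 1 lower in HiMed, beside 13.5% of all genes (7.38% higher and 6.12% lower). Fgf1, Fgf3, Fgf14, Fgfr1, Dusp6, Etv4, Etv5, Spry2, Spry4 and Spred3 were higher in HiMed, and Fgfr2 was lower. Dusp6, Etv4 and Etv5 were thus all called higher at this step, as were 3 of 6 Sprouty and Spred genes and 1 of 4 receptors. Of the 12 further ERK target genes described below, 5 were higher and 4 lower. The median log2 fold change was 0.742 over the members and -0.015 over all genes, and libraries did not overlap for 16 members, beside 32.8% of all genes.

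MedLow against Low called 2 of 29, Fgfr1 and Etv5, both lower in MedLow, beside 6.6% of all genes (4.08% higher and 2.52% lower). No member was called higher (0 with edgeR and 0 with DESeq2), and 1 of them, Fgfbp1, had an unadjusted edgeR p below 0.05 in that direction. Libraries did not overlap for 8 members, beside 27.4% of all genes, and the median log2 fold change was -0.271 over the members and -0.001 over all genes. The comparisons share bins with one another, so their values are given side by side and no overlap between them is counted as a result.

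**Figure D5:**
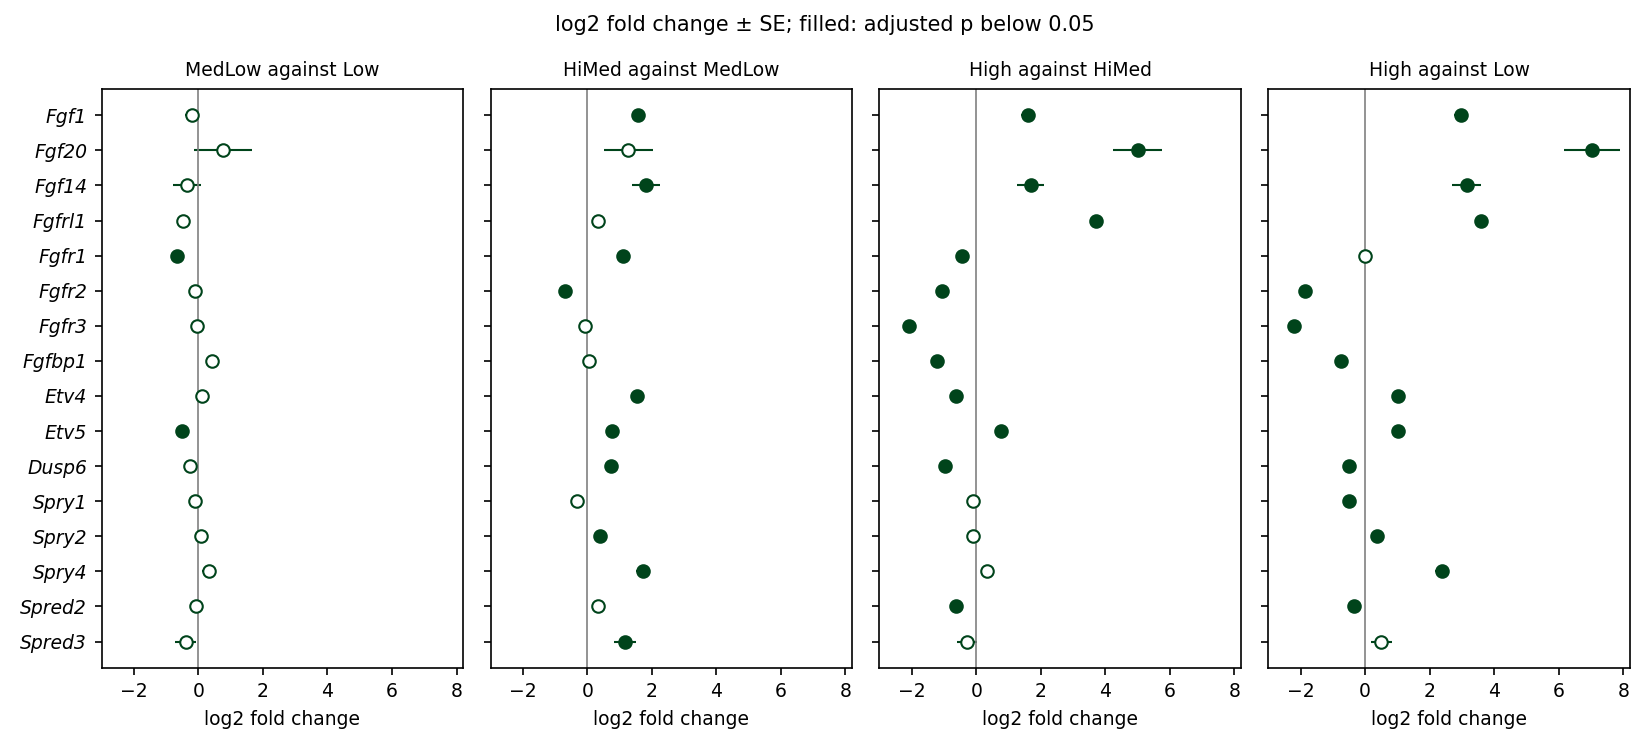
Fitted log2 fold changes (points) with SE (lines) of 16 members in the 4 comparisons of bins, 1 panel each, with filled points for an edgeR adjusted p below 0.05. Fgf2, Fgf3 and Fgf15, for which a bin held 0 or 1 counts, and members called nowhere are left out. Fgf20 and Fgfrl1 lie farthest to the right in the panel of High over Low, at 7.02 and 3.60, and Fgfr3 and Fgfr2 farthest to the left, at -2.19 and -1.88.

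The order of levels on the TPM scale changed with brightness. In Low the leading members were Fgfr3 with 291 ± 15.5 TPM, Fgfr2 with 246 ± 15.3 TPM, Fgfbp1 with 156 ± 34.2 TPM and Dusp6 with 96.1 ± 14.2 TPM (SD, n = 3), and the libraries of neighbours in this order did not overlap. In MedLow the leading genes were the same 4 in the same order, with overlap between Fgfr2 and Fgfbp1. In HiMed Fgfbp1 with 226 ± 27.4 TPM stood between Fgfr3 with 308 ± 25.2 TPM and Fgfr2 with 162 ± 14.6 TPM, which overlapped Dusp6 with 144 TPM (109.9 to 171.1 TPM over the 3 libraries). In High Fgfrl1 led with 187 ± 50.1 TPM and did not overlap Fgfbp1 with 105 ± 20.7 TPM. After it came Fgfr2 with 91.5 ± 4.53 TPM, Dusp6 with 82.6 ± 8.56 TPM, Fgfr3 with 73.7 ± 21.1 TPM, Fgfr1 with 62.7 ± 5.48 TPM and Fgf1 with 54.7 ± 20.3 TPM, each of which overlapped its neighbour.

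Other genes of the pathway were followed in 4 lists. Of 9 tested co-receptors and receptor modulators, 4 were higher and 1 lower in High than in Low, beside 20.1% and 21.2% of all genes, and the median log2 fold change was 0.451 (-0.007 over all genes). Il17rd, also called Sef, an inhibitor of FGF receptor signalling, had 4.05, 3.67 and 4.46 CPM in the Low libraries, 5.01, 3.36 and 4.05 CPM in MedLow, 6.45, 7.25 and 8.35 CPM in HiMed and 50.6, 40.4 and 87.2 CPM in High. Its High libraries lay far above the rest (log2 fold change of High over Low 3.87, SE 0.27, adjusted p = 1.11e-07). Flrt2, a membrane protein that can bind FGF receptors, had means of 33.1, 54.01, 97.4 and 80.3 CPM from Low to High and rose in HiMed over MedLow (log2 fold change 0.85, SE 0.15, adjusted p = 0.00229). The heparan sulphate proteoglycans Gpc1 and Sdc1 rose by less, with log2 fold changes of High over Low of 0.46 (SE 0.10, adjusted p = 0.00149) and 0.45 (SE 0.07, adjusted p = 1.59e-04). A further proteoglycan, Sdc4, was the 1 gene of the list called lower (log2 fold change -0.45, SE 0.12, edgeR adjusted p = 0.00829).

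Of 11 enzymes of heparan sulphate synthesis and modification, 5 were higher and 2 lower in High than in Low, beside 20.1% and 21.2% of all genes, with a median log2 fold change of 0.654. The sulphotransferase Hs3st3b1 had means of 35.4, 21.6, 48.8 and 111 CPM from Low to High (log2 fold change of High over Low 1.64, SE 0.17, adjusted p = 3.56e-06). Hs6st1, another sulphotransferase, averaged 425 ± 80.01 CPM in High and 165 ± 2.22 CPM in Low (log2 fold change 1.37, SE 0.12, adjusted p = 6.21e-07). Hs3st1 and the chain polymerase Ext1 had log2 fold changes of High over Low of 1.52 (SE 0.15, adjusted p = 2.81e-06) and 0.65 (SE 0.09, adjusted p = 6.09e-05). The 2 lower ones were Ndst1 and Hs2st1 (log2 fold changes -0.59 and -0.35, edgeR adjusted p = 1.03e-04 and 0.0411).

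Of 19 adaptors and ERK cascade genes, 6 were higher and 5 lower in High than in Low, beside 20.1% and 21.2% of all genes, with a median log2 fold change of -0.038. All of the named changes were below 1 on the log2 scale. The phospholipase Plcg1 and the docking protein Gab1 were higher (log2 fold changes 0.48 and 0.59, edgeR adjusted p = 7.96e-05 and 1.16e-04). The RAS activator Sos2 and the ubiquitin ligase Cbl were lower (log2 fold changes -0.49 and -0.43, edgeR adjusted p = 4.70e-04 and 0.00122). High against HiMed called 1 of the 19, which was lower in High, beside 22.1% of all genes.

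Of 12 further ERK target genes, 5 were higher and 5 lower in High than in Low, beside 20.1% and 21.2% of all genes, with a median log2 fold change of -0.139. In HiMed against MedLow 5 were higher and 4 lower, beside 7.38% and 6.12% of all genes, with a median of 0.189 (-0.015 over all genes). Etv1, the ETS factor closest to Etv4 and Etv5, had 8.78, 7.50 and 10.4 CPM in the Low libraries, 20.3, 15.8 and 16.4 CPM in MedLow, 108, 76.2 and 80.3 CPM in HiMed and 79.9, 93.3 and 77.2 CPM in High. Its HiMed and High libraries overlapped and lay above all Low and MedLow libraries. Its log2 fold change was 3.23 (SE 0.17, adjusted p = 7.86e-09) for High over Low and 2.33 (SE 0.16, adjusted p = 1.43e-06) for HiMed over MedLow. Dusp4, a nuclear ERK phosphatase, averaged 94.3 ± 20.3 CPM in High and 15.5 ± 1.82 CPM in Low (log2 fold change 2.60, SE 0.17, adjusted p = 6.65e-08). The cell cycle gene Ccnd1 fell to 80.5 ± 2.99 CPM in High, against 284 ± 18.1 CPM in Low (log2 fold change -1.82, SE 0.09, adjusted p = 3.30e-09). Fosl1, a FOS-family transcription factor, fell to 41.3 ± 7.73 CPM in High, against 246 ± 32.4 CPM in Low (log2 fold change -2.57, SE 0.14, adjusted p = 1.12e-08).

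Over the 12 libraries, the genes whose pattern was most like that of Fgf20, by Pearson correlation of log2(CPM + 0.5), included Mmp7 (0.989), Evl (0.988), Vipr2 (0.986) and Fgf3 (0.985). For Fgf3 they were Pde11a (0.998), Ptn (0.997), Isyna1 (0.995), Tlx2 (0.993) and Nomo1 (0.993). The libraries share bins, so these values only describe which genes change in a like pattern between bins, whatever the size of the change. Evl and Nomo1 were present in every bin, with means of 38.6, 37.9, 43.4 and 96.2 CPM and of 109, 105, 149 and 352 CPM from Low to High. Mmp7 had 0 CPM in Low and MedLow, 0.287 CPM in HiMed and 6.95 CPM in High, and Pde11a had 0.0269, 0, 0.801 and 17.4 CPM from Low to High.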

How the data were processed

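Expected counts and TPM per gene symbol were deposited by the authors for 12 libraries. Salmon 1.4.0, DESeq2 1.28.1 and the build mm39 are named per the submitters' processing notes. Not given in the sources used here are the annotation, the role of DESeq2 and whether strand was used. The TPM values deposited by the authors have 1 total in every library and allow for transcript length. The deposited expected counts were not whole in 8.24 to 13.0% of values per library and were rounded.

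Tests used edgeR 4.0.16 in R 4.3.3 on genes that passed filterByExpr with a minimum count of 10 (17432 of 52670, and the others held 0.0339% of counts). Libraries were scaled by TMM, and all 12 entered 1 quasi-likelihood model with a coefficient for every bin. Benjamini-Hochberg adjustment ran over all genes tested within each comparison, and calls need an adjusted p below 0.05. Fold changes are log2 values with the SE implied by the F statistic. The code was tested on simulated data. Common biological coefficient of variation was 0.366. Same-bin libraries differed beyond counting noise (chi-square per degree of freedom 26.6 to 91.7), so none is a copy. Where separate pools are not shown by the labels, p-values measure only the spread between these libraries.

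The genes and lists were chosen with earlier results of these data known. Full values are given for members called at least once with a mean of 1 CPM or more in their highest bin and for every receptor. The first 4 genes per pathway list by adjusted p for any difference are named, some with fold changes alone. Sdc4, Ndst1 and Hs2st1 are named besides, because they were called lower in High than in Low. Likeness needed a mean of 1 CPM in the highest bin, and clone names were left out. Some genes the rules name are not reported here.

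Replicate numbers 1 to 3 recur in each bin. The series describes a replicate as a mouse pool sorted into the bins. The numbers were therefore taken to pair libraries, though no label says so outright. This pairing entered only the replicate block, and the main fit treated all libraries as independent. Over 9650 genes, the 18 pairs with a shared number had correlations of 0.0765 to 0.364 between their deviations from the bin means (16 above 0.1), and the 36 others had -0.297 to 0.0536. Alternatives were other scalings, DESeq2 1.42.0, limma 3.58.1 on log2(TPM + 1) or log2(TPM + 0.1), no filter, a filter of 1 CPM in 3 libraries, the replicate block, each library left out, and the 6 libraries of a comparison alone.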

Additional observations from a re-analysis of the deposited data

How the results depend on the processing

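Of 62 called differences of single members, 48 kept their direction and their call under every alternative tried, and the 14 others are named beside their values in the report. The counts of members called moved by more than 1.5 times under 3 kinds of setting. With the replicate block, 1 member was called higher in MedLow than in Low (Fgfbp1) where the fit without it called 0. With limma on log2(TPM + 1) and on log2(TPM + 0.1), 2 members were called lower in HiMed than in MedLow, where edgeR called 1. With 1 library left out, members called lower in MedLow than in Low numbered 1 instead of 2 without Low replicate 2, Low replicate 3, MedLow replicate 1 or MedLow replicate 3, and 2 instead of 1 were lower in HiMed than in MedLow without HiMed replicate 2.

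With each library left out in turn, members called higher numbered 8 to 10 in High against Low, 6 to 6 in High against HiMed, 7 to 11 in HiMed against MedLow and 0 to 0 in MedLow against Low. Members called lower numbered 6 to 8, 7 to 8, 1 to 2 and 1 to 2 in the same comparisons, and those with any difference among the bins 17 to 19. The block changed no other call than those given in the report, on Fgf15, Fgf13, Spred2, Spred3 and Fgfbp1.

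Directions reversed only for values that were not called. Fgfr1 in High against Low, -0.01 on the log2 scale, became 0.062 with library size only, 0.243 with log2(TPM + 1), 0.247 with log2(TPM + 0.1), 0.002 with the filter of 1 CPM, and -0.074 to 0.029 with each library left out (above 0 without Low replicate 1, Low replicate 3, High replicate 1 or High replicate 3). Spred1 in High against Low became 0.12 with log2(TPM + 1) and 0.13 with log2(TPM + 0.1). Fgfr3 in HiMed against MedLow became 0.12 with both TPM scales. Fgf18 in High against Low ran between -0.5 and 0.075 with each library left out, and was above 0 without High replicate 1. The cause of these changes was not tested. On the log2(TPM + 1) scale, 66.9% of all genes called in High against Low were higher, against 48.7% with TMM, 66.3% against 47.7% in High against HiMed and 72.3% against 54.7% in HiMed against MedLow. With library size only it was 65.7% in HiMed against MedLow. Depth limits the ligands at or below about 1 CPM, where 3 counts over a bin are 0.0200 to 0.0284 CPM.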
